A study of Homo sapiens with 12 samples.

Results

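The 10 genes described here encode enzymes that act on bioactive phospholipids and sphingolipids: the lipid phosphate phosphatases *PLPP1*, *PLPP2* and *PLPP3*, the serine palmitoyltransferase subunits *SPTLC1*, *SPTLC2* and *SPTLC3*, the ceramide glycosyltransferases *UGT8* and *UGCG*, the sphingosine kinase *SPHK1* and the sphingosine-1-phosphate lyase *SGPL1*. They are 10 of the 25141 genes in the count table and were found by matching Ensembl identifiers to GENCODE symbols. All 10 were among the 12542 genes that passed the filter on low counts. *SPTLC3* passed only through its counts in the cells with the CIN85 plasmid, the group in which it was high. The genes were selected with the changes between CIN85 conditions already known, *PLPP2*, *UGT8* and *SPTLC3* as the responsive ones and the others for contrast, so the changes of the 10 genes in those comparisons are given as a description without a test.

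RNA-seq was performed on HOS, a human osteosarcoma cell line, in 4 groups of 3 libraries. CIN85, encoded by *SH3KBP1*, is an adaptor protein that takes part in receptor endocytosis. The upCIN85 cells were a pool of geneticin-resistant cells carrying the pRc/CMV2 plasmid with full-length CIN85, and the Mock cells received the vector without insert. For the knockdown, siCIN85 cells were transfected with several siRNAs that target CIN85, mixed together, and siNeg cells with a control siRNA. The resistant cells were pools and not single clones, and the siRNA groups and the plasmid groups differ in transfection, so each condition has its own control. The labels do not say whether the 3 libraries of a group came from separate cultures, so p-values measure the spread between these libraries, which may be technical.

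Lipid phosphate phosphatases are membrane enzymes that remove the phosphate from phosphatidic acid, lysophosphatidic acid (LPA), ceramide-1-phosphate and sphingosine-1-phosphate (S1P), and they can thereby end signaling by LPA and S1P through their receptors. Sphingolipid synthesis starts with serine palmitoyltransferase, in which *SPTLC1* pairs with either *SPTLC2* or *SPTLC3*, and the resulting bases are turned into ceramide. *UGT8* adds galactose to ceramide and is best known from myelinating cells, while *UGCG* adds glucose and starts the synthesis of most glycosphingolipids. *SPHK1* makes S1P from sphingosine, and *SGPL1* cleaves S1P irreversibly.

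Total counts per library ranged from 3540641 to 6049458, with the 6 siRNA libraries shallower than the 6 plasmid libraries. Levels are given as CPM, counts scaled to a common library size, after TMM normalization. The libraries read only the ends of transcripts, so CPM was not divided by gene length, and levels of different genes are compared on this scale only. *SH3KBP1* was at 85.5, 87.2 and 82.6 CPM in siNeg and at 3.88, 8.96 and 9.77 CPM in siCIN85 (log2 fold change -3.51, SE 0.21, edgeR adjusted p = 5.09e-08). It was at 76.6, 82.8 and 73.0 CPM in Mock and at 71.0, 90 and 82.8 CPM in the libraries labelled upCIN85 (log2 fold change 0.07, SE 0.16, edgeR adjusted p = 0.887). A plasmid usually supplies its own transcript end, which a count at the end of the endogenous gene need not include, so this value does not check the plasmid. The authors examined CIN85 protein in the resistant pool by western blot, a separate measure that these counts do not cover. Among 10 markers of the mesenchymal and osteoblast lineage, 8 were in the table and 7 passed the filter, while *IBSP* had at most 1 count in any library. Their summed level was 1780 to 2250 CPM in Mock and 1910 to 2570 in upCIN85, and 1720 to 2090 in siNeg and 1200 to 1610 in siCIN85. Of 4 epithelial markers, 3 were in the table, with a summed level of 50.6 to 56.1 CPM in Mock and 69.8 to 82.6 in upCIN85, and 49.4 to 60.7 in siNeg and 44.8 to 55.2 in siCIN85. The mesenchymal sum was thus lower in every siCIN85 than in every siNeg library and the epithelial sum higher in every upCIN85 than in every Mock library, and their part in the values below was not tested. Single mesenchymal markers did not move together. From siNeg to siCIN85, mean *COL1A1* went from 699 to 428 CPM, *SPARC* from 643 to 465, *VIM* from 516 to 479 and *SPP1* from 2.63 to 5.95. From Mock to upCIN85, *COL1A1* rose from 729 to 1070 CPM and *SPARC* fell from 545 to 427. Of 5 markers of myelinating glia, the cells best known for *UGT8*, 3 were in the table, and *MBP* (19.4 to 37.1 CPM) was the only one that passed the filter. Of 4 blood markers, 3 were in the table and none passed the filter. *PTPRC* and *CD3E* had at most 1 count in any library, and *CD14* had 4 to 9 counts. In bulk samples fewer cells expressing a gene and less RNA per cell cannot be told apart.

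Sequence upstream of or around the start sites is shown for *PLPP2* and *UGT8*, both lower in upCIN85 cells, for *UGCG* as the counterpart of *UGT8*, and for *SPHK1*, which was higher after the siRNA. The sequences come from RefSeq on GRCh38.p14, are written 5′ to 3′ along the transcribed strand, and are cut to exclude untranslated exon bases. The *UGT8* stretch is chr4:114598152-114598451 on the plus strand, the *UGCG* stretch chr9:111896564-111896765 on the plus strand, the *SPHK1* stretch chr17:76382954-76383253 on the plus strand, and the *PLPP2* stretch chr19:291186-291336 on the minus strand. In the first 3, capitals mark a GC box (GGGCGG, or CCGCCC on the other strand), an E-box (CACGTG) or an AP-1 motif (TGAGTCA, or TGACTCA on the other strand). In *PLPP2*, capitals mark the 52 coding bases that open the reading frame, followed by intron.
UGT8: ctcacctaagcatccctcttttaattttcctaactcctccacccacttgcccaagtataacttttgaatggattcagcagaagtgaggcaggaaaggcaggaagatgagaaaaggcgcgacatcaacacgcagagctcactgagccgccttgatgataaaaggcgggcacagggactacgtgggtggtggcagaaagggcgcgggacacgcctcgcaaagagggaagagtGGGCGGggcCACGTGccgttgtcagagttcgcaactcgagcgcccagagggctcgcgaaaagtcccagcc
UGCG: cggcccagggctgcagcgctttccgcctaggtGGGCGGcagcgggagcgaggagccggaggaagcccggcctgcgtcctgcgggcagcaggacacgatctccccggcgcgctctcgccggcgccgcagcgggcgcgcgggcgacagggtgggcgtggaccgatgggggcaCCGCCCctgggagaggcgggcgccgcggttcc
SPHK1: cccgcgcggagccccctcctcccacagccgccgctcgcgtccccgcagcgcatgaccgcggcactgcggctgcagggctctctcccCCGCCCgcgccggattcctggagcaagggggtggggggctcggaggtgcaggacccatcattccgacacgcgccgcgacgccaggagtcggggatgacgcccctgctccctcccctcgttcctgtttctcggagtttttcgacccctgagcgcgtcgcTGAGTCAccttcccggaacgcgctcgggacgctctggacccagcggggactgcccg
PLPP2: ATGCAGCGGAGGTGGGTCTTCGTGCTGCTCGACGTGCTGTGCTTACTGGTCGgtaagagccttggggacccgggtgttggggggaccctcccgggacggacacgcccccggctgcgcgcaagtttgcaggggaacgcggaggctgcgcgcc

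Of all 35116 promoter windows of 300 bases in the same table, 45% held a GC box, 7.26% an E-box, 4.95% an AP-1 motif and 10.3% an ETS motif (CCGGAAG, or CTTCCGG on the other strand), each counted on both strands. The *UGT8* window that ends just before the GENCODE gene start held 1 GC box and 1 E-box, which lie 3 bases apart in the sequence above. The other *UGT8* windows held no E-box, with 3 GC boxes at chr4:114598557-114598856 and 1 at chr4:114599035-114599334. *SPHK1* also has windows that are not printed, with 2 GC boxes and no AP-1 motif at chr17:76384359-76384658, and 1 AP-1 motif and no GC box at chr17:76385028-76385327. The *UGCG* window held 3 GC boxes, of which 2 lie in the stretch printed. The *PLPP2* window held no GC box, E-box or AP-1 motif. A match is a description of the letters and not a binding site, and no match says only that these letters are not in this window.

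**PLPP2** was lower in upCIN85 than in Mock and higher in siCIN85 than in siNeg, with no overlap between the libraries of either pair. This gene lies at chr19:281040-291504 on the minus strand of GRCh38 (GENCODE 29). It was at 28.2, 27.2 and 34.2 CPM in Mock (29.9 ± 3.79, SD, n = 3) and at 12.8, 17.0 and 13.3 CPM in upCIN85 (14.3 ± 2.31). It was at 53.2, 46.7 and 28.9 CPM in siNeg (42.9 ± 12.6) and at 110, 83.0 and 60.5 CPM in siCIN85 (84.5 ± 24.8). The upCIN85 libraries were thus the lowest of the 12 and the siCIN85 libraries the highest, while Mock and siNeg overlapped. The log2 fold change was -1.05 (SE 0.24, 95% interval -1.55 to -0.56) in upCIN85 minus Mock, a level 2.08-fold lower. In siCIN85 minus siNeg it was 0.98 (SE 0.22, 95% interval 0.52 to 1.43), a level 1.97-fold higher. Leaving out single libraries moved the siCIN85 value between 0.73 (without siCIN85 replicate 1) and 1.16 (without siCIN85 replicate 3).

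**PLPP1** and **PLPP3** did not follow *PLPP2* in upCIN85 cells. *PLPP1*, at chr5:55424854-55535050 on the minus strand, was at 15, 14.3 and 15.1 CPM in Mock and at 14.2, 12.4 and 21.1 CPM in upCIN85, values that overlapped (log2 fold change 0.10, SE 0.19, 95% interval -0.30 to 0.51). It was at 12, 13.0 and 9.64 CPM in siNeg and at 8.74, 8.96 and 8.71 CPM in siCIN85 (log2 fold change -0.39, SE 0.23, 95% interval -0.87 to 0.089). All siCIN85 libraries lay below all siNeg libraries, the opposite direction to *PLPP2*, with an interval that includes 0. *PLPP3*, at chr1:56494747-56645301 on the minus strand, was the lowest of the family, with 13 to 31 counts per library. Its level was 3.95, 3.56 and 3.51 CPM in Mock, 3.15, 3.76 and 3.57 in upCIN85, 7.50, 6.11 and 3.39 in siNeg, and 5.10, 6.94 and 8.19 in siCIN85. The groups of *PLPP3* overlapped in both comparisons, and its log2 fold changes were -0.07 (SE 0.30) in upCIN85 minus Mock and 0.24 (SE 0.29) in siCIN85 minus siNeg. Both intervals, -0.71 to 0.57 and -0.38 to 0.86, are wide enough to hold moderate changes either way. The end of *PLPP1* overlaps *MTREX* on the opposite strand and that of *PLPP3* overlaps *AC119674.2* on the same strand, so reads of these neighbours may be mixed with theirs.

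**Figure D1:**
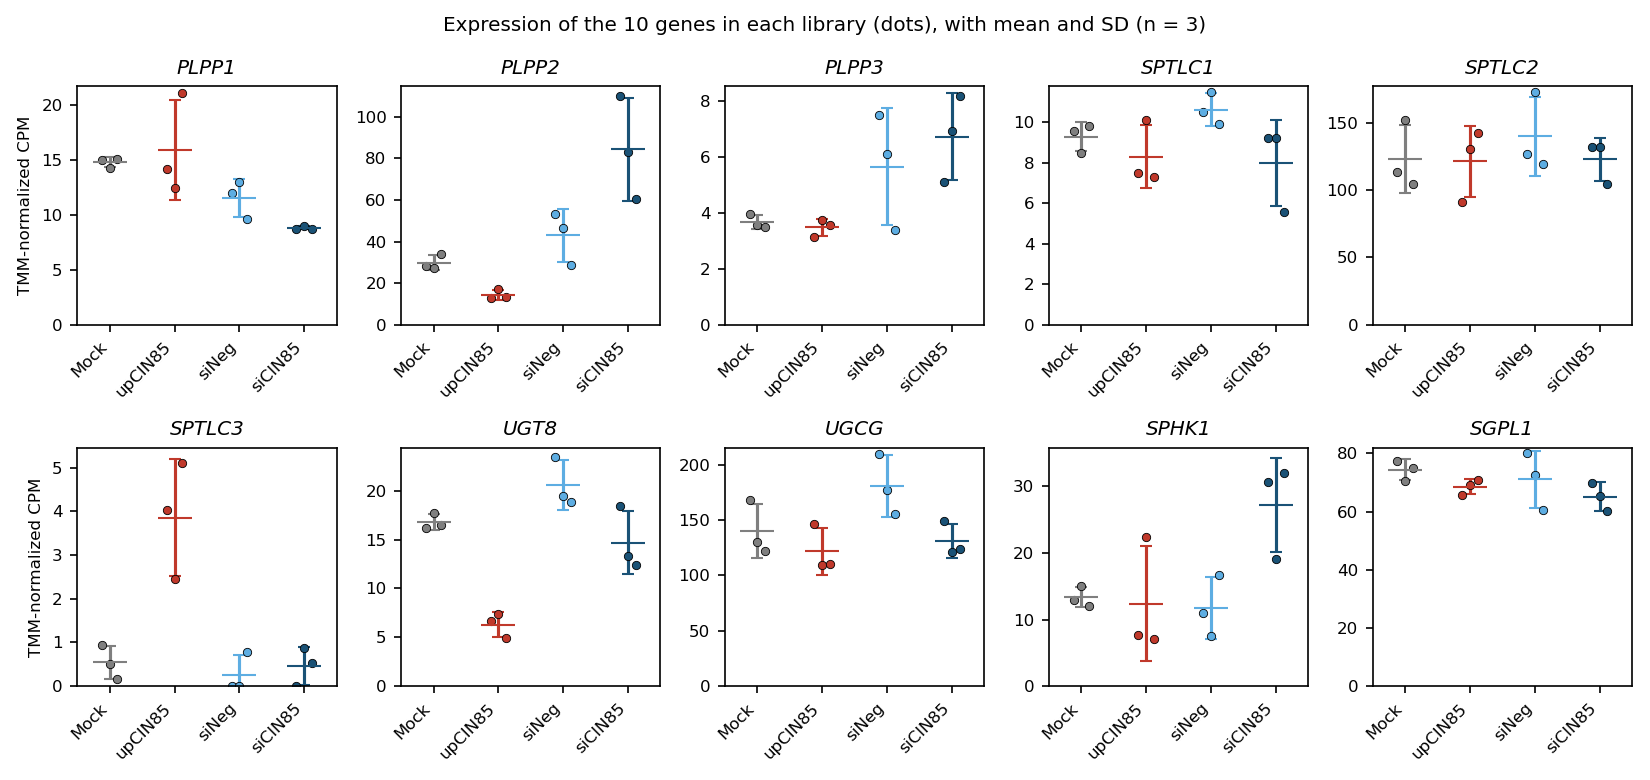
TMM-normalized CPM of the 10 genes (y axis, starting at 0, a scale of its own for each gene) in the 12 libraries by group (x axis), with dots for libraries and bars for the mean and SD of 3. For *PLPP2* the upCIN85 dots (12.8 to 17.0) lie below all others and the siCIN85 dots (60.5 to 110) above, for *UGT8* the upCIN85 dots lie below and the siNeg dots above all others, for *SPTLC3* the upCIN85 dots lie above all others, and for *SPHK1* the siCIN85 dots stand above Mock and siNeg while upCIN85 replicate 2 stands above its own group.

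Within the family, the share of *PLPP2* in the summed counts of *PLPP1*, *PLPP2* and *PLPP3* shows the same change without the library's depth. The share was 59.8%, 60.4% and 64.8% in Mock and 42.4%, 51.2% and 35.0% in upCIN85, with every upCIN85 value below every Mock value. In siNeg it was 73.2%, 71.0% and 68.9%, and in siCIN85 88.8%, 83.9% and 78.2%, with no overlap. Exact binomial (Clopper-Pearson) 95% intervals were 35.0% to 50.2% for upCIN85 replicate 1 and 85.8% to 91.4% for siCIN85 replicate 1, and these cover counting error only. The summed level of the 3 genes was 48.3 ± 4.02 CPM in Mock and 33.7 ± 3.95 in upCIN85, and 60.1 ± 16.1 CPM in siNeg and 100 ± 23.2 in siCIN85 (SD, n = 3 each). The log2 ratio of *PLPP2* to *PLPP1* was 0.99 ± 0.15 in Mock and -0.12 ± 0.55 in upCIN85, against 1.82 ± 0.28 in siNeg and 3.16 ± 0.43 in siCIN85. The ratio to *PLPP3* was 2.88 ± 0.23, 1.91 ± 0.14, 2.85 ± 0.093 and 3.55 ± 0.75 in the same order, so both mean ratios were lower in upCIN85. In siCIN85 both mean ratios were higher than in siNeg, and the spread of the ratio to *PLPP3* was about as large as its difference of 0.70.

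**SPTLC3** was near the limit of detection except in upCIN85 cells. It lies at chr20:13008979-13169103 on the plus strand and encodes the subunit that lets serine palmitoyltransferase use shorter acyl chains. Its counts were 5, 3 and 1 in Mock (0.941, 0.509 and 0.175 CPM) and 23, 15 and 30 in upCIN85 (4.02, 2.45 and 5.10 CPM). In siNeg the counts were 0, 0 and 3, and in siCIN85 0, 3 and 2. A library with 0 counts allows up to 3, which is 0.750 CPM in siNeg replicate 1 and 0.728 CPM in siCIN85 replicate 1. Every upCIN85 library was above every other library, whereas Mock, siNeg and siCIN85 overlapped. The log2 fold change in upCIN85 minus Mock was 2.79 (SE 0.60, 95% interval 1.52 to 4.07). The summed counts, 68 against 9, gave a ratio of 7.21 per normalized library size, with an exact 95% interval of 3.58 to 16.4 that covers counting error only. No fold is given for siCIN85 against siNeg, since no library of either group had more than 3 counts.

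The other subunits were expressed in every library without a comparable difference. *SPTLC2*, at chr14:77505997-77616773 on the minus strand, was at 113, 152 and 104 CPM in Mock and at 91.3, 130 and 142 CPM in upCIN85 (log2 fold change -0.03, SE 0.18, 95% interval -0.40 to 0.34). It was at 127, 173 and 119 CPM in siNeg and at 132, 132 and 104 CPM in siCIN85 (log2 fold change -0.19, SE 0.18, 95% interval -0.57 to 0.20). The *SPTLC2* libraries overlapped in both comparisons. *SPTLC1*, the subunit common to both enzyme forms, lies at chr9:92000087-92115384 on the minus strand. It was at 9.59, 8.49 and 9.82 CPM in Mock and at 7.52, 10.1 and 7.31 CPM in upCIN85 (log2 fold change -0.16, SE 0.22, 95% interval -0.61 to 0.30). In siNeg it was at 10.5, 11.5 and 9.90 CPM and in siCIN85 at 9.22, 9.25 and 5.55 CPM (log2 fold change -0.41, SE 0.23, 95% interval -0.90 to 0.084). The siCIN85 libraries of *SPTLC1* lay below the siNeg libraries, with an interval that includes 0. Of the 902 stretches of 50 bases at the ends of its transcripts, 27 also occur in other genes, whereas none did for the other 9 enzymes.

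*SPTLC3* made up 0.824%, 0.333% and 0.168% of the summed *SPTLC2* and *SPTLC3* counts in Mock and 4.22%, 1.86% and 3.48% in upCIN85. The share was higher in every upCIN85 than in every Mock library and stayed small in all of them, and the exact intervals of upCIN85 replicate 2 (1.04% to 3.04%) and Mock replicate 1 (0.268% to 1.91%) overlapped. The summed level of the pair was 124 ± 25.6 CPM in Mock and 125 ± 26.5 in upCIN85, so the sum of these alternative partners was about the same in both groups. The log2 ratio of *SPTLC3* to *SPTLC2* was -7.08 ± 0.60 in Mock and -4.85 ± 0.59 in upCIN85, a difference of 2.22, and the difference in the ratio to *SPTLC1* was 2.36. Both differences depend on the count of 2 added before the logarithm, because Mock holds so few *SPTLC3* reads.

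**UGT8** was lower in upCIN85 than in Mock and, by a smaller amount, in siCIN85 than in siNeg. It lies at chr4:114598455-114678224 on the plus strand. Its level was 16.2, 17.7 and 16.5 CPM in Mock (16.8 ± 0.779, SD, n = 3) and 6.64, 7.35 and 4.93 CPM in upCIN85 (6.31 ± 1.25). It was 23.5, 19.5 and 18.8 CPM in siNeg (20.6 ± 2.54) and 18.4, 13.3 and 12.4 CPM in siCIN85 (14.7 ± 3.26). The upCIN85 libraries lay below all others and the siNeg libraries above all others, while siCIN85 and Mock overlapped. The log2 fold change in upCIN85 minus Mock was -1.41 (SE 0.20, 95% interval -1.83 to -0.98), a level 2.65-fold lower. In siCIN85 minus siNeg it was -0.48 (SE 0.19, 95% interval -0.89 to -0.071), a level 1.39-fold lower. The estimate in upCIN85 ranged from -1.53 to -1.26 over the 20 alternative analyses.

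**UGCG** was the more abundant of the pair in every library. At chr9:111896766-111935369 on the plus strand, it was at 168, 130 and 122 CPM in Mock and at 146, 109 and 110 CPM in upCIN85, which overlapped (log2 fold change -0.21, SE 0.15, 95% interval -0.52 to 0.11). It was at 210, 177 and 155 CPM in siNeg and at 149, 121 and 124 CPM in siCIN85 (log2 fold change -0.46, SE 0.15, 95% interval -0.78 to -0.14). All siCIN85 values of *UGCG* lay below all siNeg values, a level 1.38-fold lower, close to the 1.39-fold of *UGT8*. The share of *UGT8* in the summed counts of both genes was 8.78%, 11.9% and 11.9% in Mock and 4.36%, 6.33% and 4.29% in upCIN85, without overlap. In siNeg it was 10.1%, 9.95% and 10.8%, and in siCIN85 11%, 9.94% and 9.11%, values that overlapped. The balance between the galactose-adding and the glucose-adding enzyme was therefore lower in upCIN85 (log2 ratio -3.02 ± 0.28 in Mock and -4.19 ± 0.32 in upCIN85). In the knockdown it was -3.10 ± 0.073 in siNeg and -3.13 ± 0.15 in siCIN85, a difference of -0.031.

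**Figure D2:**
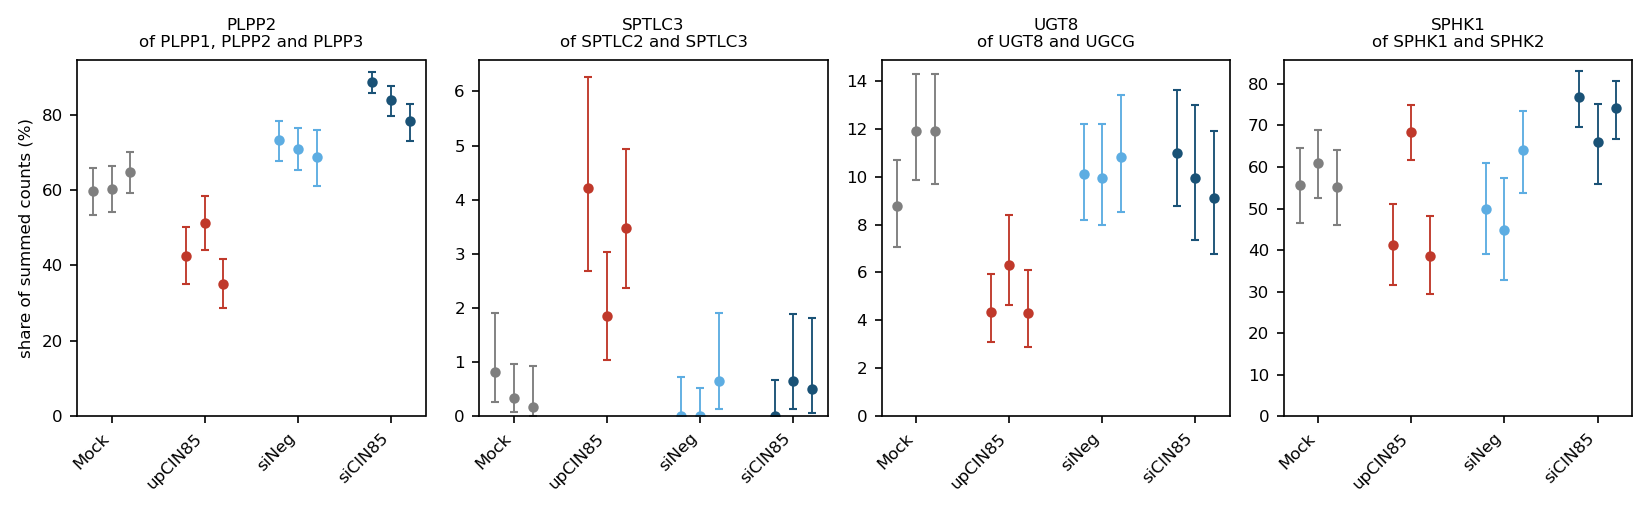
Share of 1 gene in the summed counts of its family (y axis, percent, starting at 0) in each library by group (x axis), with exact 95% binomial intervals that cover counting error only. The share of *PLPP2* was 59.8 to 64.8% in Mock, 35.0 to 51.2% in upCIN85 and was highest in siCIN85, those of *SPTLC3* and *UGT8* stand apart only in upCIN85, and that of *SPHK1* is split within upCIN85, with replicate 2 at 68.5%.

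**SPHK1** was higher in siCIN85 than in siNeg and uneven among the upCIN85 libraries. This kinase gene lies at chr17:76376584-76387860 on the plus strand. It was at 11, 7.58 and 16.7 CPM in siNeg (11.7 ± 4.59, SD, n = 3) and at 30.6, 19.1 and 32.0 CPM in siCIN85 (27.2 ± 7.06), without overlap. The log2 fold change was 1.22 (SE 0.37, 95% interval 0.45 to 1.99), a level 2.33-fold higher. Blocked by replicate number within the knockdown it was 1.23 (SE 0.32, 95% interval 0.56 to 1.90). Mock libraries were at 13.0, 15.1 and 12.1 CPM and upCIN85 libraries at 7.69, 22.4 and 7.14 CPM, with replicate 2 above and the other two below every Mock library. The log2 fold change of -0.10 (SE 0.36) therefore rests on which library is included, and it was -0.85 when upCIN85 replicate 2 was left out and 0.17 without upCIN85 replicate 3. The share of *SPHK1* in the summed counts of *SPHK1* and *SPHK2*, the other sphingosine kinase, was 50%, 44.9% and 64.0% in siNeg and 76.8%, 66.0% and 74.2% in siCIN85. *SPHK2* was at 9.89 ± 0.962 CPM in siNeg and 10 ± 0.953 in siCIN85 (log2 fold change 0.022, SE 0.19, edgeR adjusted p = 0.972).

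**SGPL1** had similar levels in all groups. At chr10:70815961-70881173 on the plus strand, it was at 77.5, 70.5 and 75.1 CPM in Mock and at 65.7, 69.3 and 70.7 CPM in upCIN85 (log2 fold change -0.12, SE 0.12, 95% interval -0.36 to 0.13). It was at 80.2, 72.6 and 60.7 CPM in siNeg and at 69.9, 65.4 and 60.2 CPM in siCIN85 (log2 fold change -0.13, SE 0.12, 95% interval -0.38 to 0.13). The libraries overlapped in both comparisons, and the intervals reach down to -0.38 and up to 0.13 on the log2 scale. In the knockdown the libraries thus separated for the S1P-making kinase *SPHK1* and overlapped for the S1P-cleaving lyase *SGPL1*, and this contrast was not tested.

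**Figure D3:**
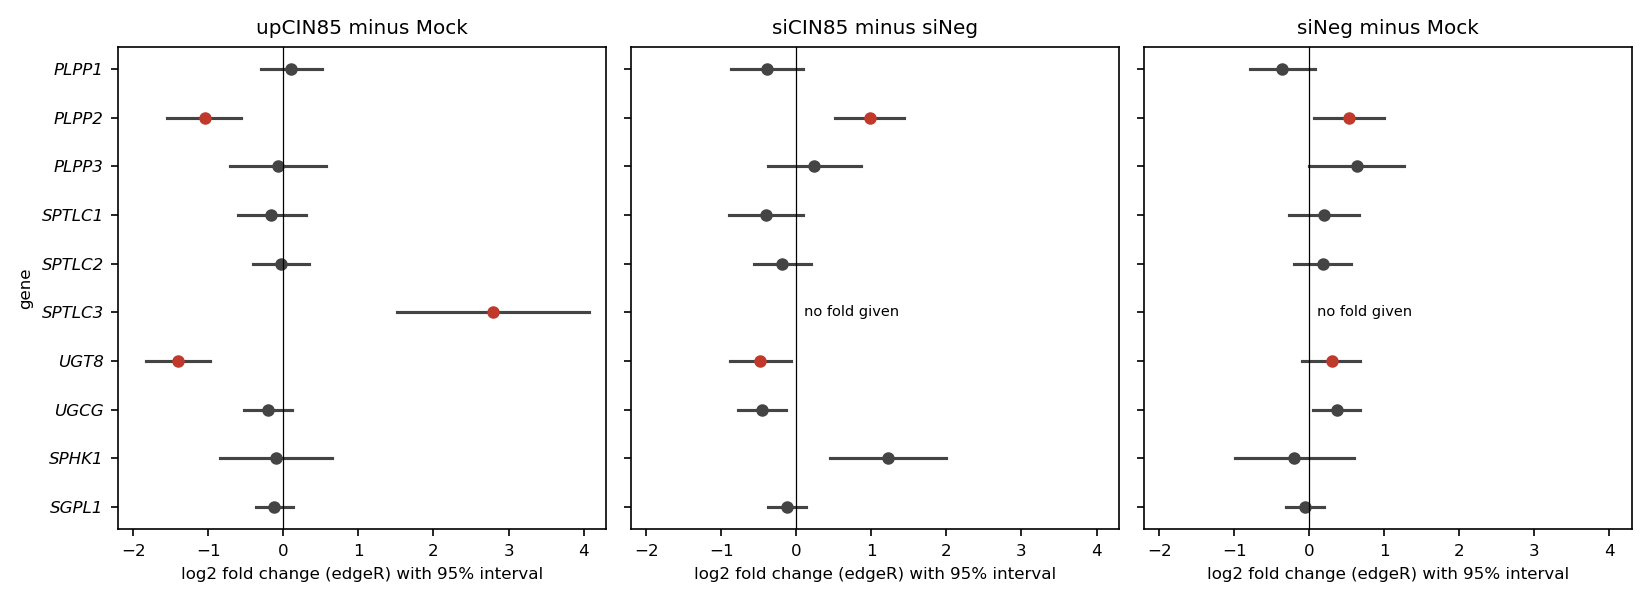
Log2 fold change of the 10 genes (x axis, edgeR, dots) with 95% intervals (lines) in upCIN85 minus Mock, siCIN85 minus siNeg and siNeg minus Mock, with *PLPP2*, *SPTLC3* and *UGT8* in red. *PLPP2* lies at -1.05 on the left and at 0.98 in the middle, *UGT8* lies below 0 in both, *SPHK1* lies above 0 only in the middle, and no value is drawn for *SPTLC3* where it was almost undetected.

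In upCIN85 minus Mock, 3 of the 10 genes (*PLPP2*, *SPTLC3*, *UGT8*) passed an adjusted p of 0.05, where 1.23% of all genes tested did. In siCIN85 minus siNeg, 1 gene (*PLPP2*) passed, against 1.04% of all genes. In a fit blocked by replicate number within the knockdown, 2 genes (*PLPP2*, *SPHK1*) passed, against 3.42% of all genes. The pairing by number was inferred from the data and is not stated by the labels. The genes were chosen on these comparisons, so nothing is read from their counts. The median log2 fold change of the 10 genes was -0.11 in upCIN85 minus Mock and -0.16 in siCIN85 minus siNeg, where all genes tested had medians of 0.0072 and -0.0052. Libraries did not overlap for 3 of the 10 genes in the former and for 6 in the latter, as for 20.7% and 20.2% of all genes tested.

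The comparison of siNeg with Mock shows how far the controls lie apart. It describes the combined difference in transfection, selection and depth and not an effect of CIN85, and both control groups also enter the other comparisons. None of the 10 genes passed the threshold in edgeR or DESeq2, and in edgeR 0.526% of all genes tested were called. An unadjusted edgeR p below 0.05 was found for 2 of the 10 genes, against 1560 of the 12542 genes tested. The estimates for *PLPP3* (log2 fold change 0.63, SE 0.30, edgeR adjusted p = 0.405) and *UGCG* (0.37, SE 0.15, edgeR adjusted p = 0.316) were the largest among the 7 genes not listed as responsive. *PLPP1* was lower in every siNeg than in every Mock library (-0.36, SE 0.21, edgeR adjusted p = 0.499), and *SPTLC1* was higher in every siNeg library (0.19, SE 0.22, edgeR adjusted p = 0.767). *SPTLC2* (0.18), *SPHK1* (-0.20) and *SGPL1* (-0.062) had adjusted p-values of 0.726, 0.881 and 0.881 in edgeR. As a description, *PLPP2* differed by 0.53 (SE 0.22) and *UGT8* by 0.30 (SE 0.18) between the controls, which is smaller than their changes in upCIN85 cells. In siCIN85 minus siNeg *PLPP2* changed by 0.98 (SE 0.22) and *UGT8* by -0.48 (SE 0.19). The *UGT8* change was thus nearer in size to its control gap, and its siCIN85 libraries overlapped Mock.

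The genes around these enzymes were taken from a list of 103 other genes of LPA, S1P and sphingolipid metabolism in 11 roles, of which 96 were in the table and 67 were tested. In upCIN85 minus Mock none of the 67 passed an adjusted p of 0.05 in edgeR or DESeq2, and in edgeR 1.23% of all genes tested did. An unadjusted edgeR p below 0.05 was found for 7 of the 67, against 1817 of the 12542 genes tested. The largest estimate was that of *ENPP2*, which encodes autotaxin, the secreted enzyme that makes LPA. It had 10, 5 and 10 counts in Mock and 25, 17 and 26 in upCIN85, without overlap (log2 fold change 1.36, SE 0.40, edgeR adjusted p = 0.0979), and it was picked after its value was seen. The median log2 fold change of the 67 genes was -0.031, against 0.0072 for all genes tested.

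In siCIN85 minus siNeg, 2 of the 67 genes rose and none fell, against the 1.04% of all genes tested. Of these, *LPAR3*, a G protein-coupled receptor for LPA, was at 45.2, 58.6 and 64.3 CPM in siNeg and at 106, 80.7 and 99.8 CPM in siCIN85 (log2 fold change 0.77, SE 0.17, edgeR adjusted p = 0.0413). No siCIN85 library of this gene overlapped siNeg. Over 20 alternatives it kept its direction and was called in 12, with edgeR or DESeq2 adjusted p-values from 6.17e-05 to 0.197, but not with only the 6 libraries of the comparison. The call of *LPAR3* was lost without Mock replicate 1 or 3, upCIN85 replicate 3, siNeg replicate 1 or 2, or siCIN85 replicate 1 or 3. With the replicate block in the knockdown, *SGMS2*, a sphingomyelin synthase, also passed and fell (log2 fold change -0.71, adjusted p = 0.0423 in edgeR). Its levels were 42.2, 28.8 and 39.6 CPM in siNeg and 20.9, 28.9 and 18.0 CPM in siCIN85, which overlapped, and its adjusted p without the block was 0.0714.

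Between the controls, *ST3GAL5*, which makes the ganglioside GM3, was the 1 gene of the list that passed the threshold in edgeR. It was at 27.3, 25 and 27.9 CPM in Mock and at 15.5, 15.9 and 15.1 CPM in siNeg (log2 fold change -0.78, SE 0.15, edgeR adjusted p = 0.023). Every siNeg value lay below every Mock value, and the adjusted p ranged from 0.00355 to 0.111 over 17 alternatives, with the call lost without any single Mock library and without siNeg replicate 1 or 2. In upCIN85 and siCIN85 it did not pass the threshold (edgeR adjusted p = 0.234 and 0.164).

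The most abundant tested gene of each role did not pass the threshold in either CIN85 comparison except *LPAR3*. *PSAP*, the precursor of the saposins that assist lysosomal sphingolipid breakdown, was the highest, at 709 ± 88.5 CPM in Mock and 741 ± 30.9 in upCIN85, and 887 ± 14.4 in siNeg and 887 ± 17.2 in siCIN85. *CERS2*, a ceramide synthase for very long acyl chains, was at 196 ± 11.8, 172 ± 20.8, 147 ± 3.30 and 171 ± 14.1 CPM in the same order. *ORMDL1*, which restrains serine palmitoyltransferase, was at 127 ± 11.7, 122 ± 9.63, 113 ± 0.579 and 119 ± 6.61 CPM. These levels differed little in either comparison, with log2 fold changes between -0.19 and 0.22. *SGPP1*, an S1P phosphatase, was at 73.1 ± 6.68 CPM in Mock and 63.5 ± 4.90 in upCIN85, and 59.1 ± 6.06 in siNeg and 45.2 ± 3.73 in siCIN85 (log2 fold change -0.39 in siCIN85 minus siNeg, SE 0.13, edgeR adjusted p = 0.146). The acyltransferase *AGPAT5*, the ceramide carrier *CERT1*, the sphingomyelinase *SMPD4*, the lactosylceramide synthase *B4GALT5* and the acid ceramidase *ASAH1* had log2 fold changes between -0.30 and 0.28 in both comparisons. *MFSD2B*, an S1P exporter, was low, at 4.75 ± 3.09 CPM in Mock and 6.12 ± 4.18 in upCIN85, and 7.06 ± 1.33 in siNeg and 11.1 ± 2.59 in siCIN85 (edgeR adjusted p = 0.802 and 0.551).

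**Figure D4:**
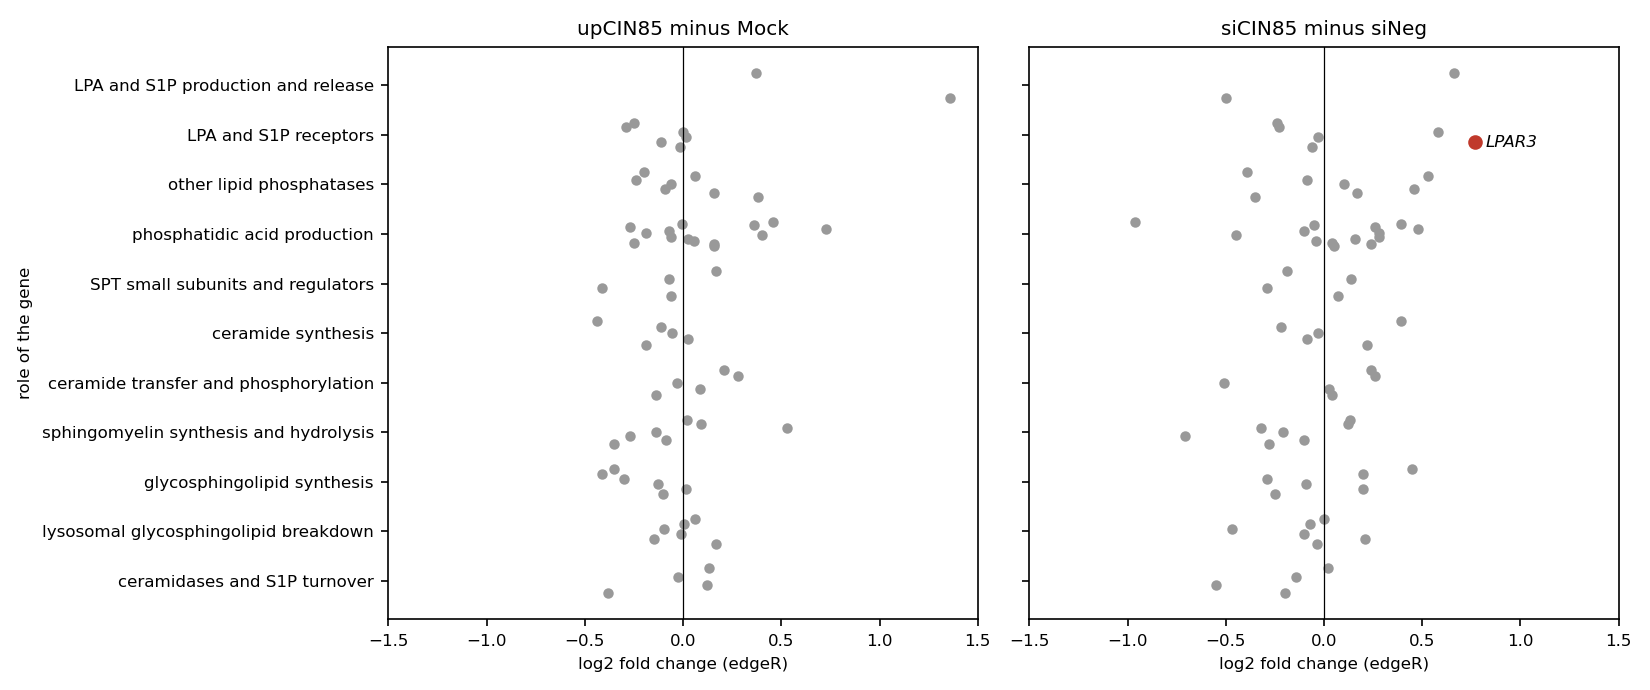
Log2 fold change (x axis, edgeR) of tested genes of the pathway list (dots) by role (y axis; SPT is serine palmitoyltransferase) in upCIN85 minus Mock and siCIN85 minus siNeg, with red and a name for genes past an adjusted p of 0.05. No gene is red on the left, where *ENPP2* is the dot at 1.36, and *LPAR3* (0.77) is red on the right.

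Genes whose pattern was most like that of the 3 responsive genes were found by Pearson's r of log2 CPM over the 12 libraries, which share group structure and depth, and are given as a description. For *PLPP2* they were *RHEBL1* (r = 0.966), *EPG5* (r = 0.964) and *KDSR* (r = 0.964). *KDSR* encodes the reductase that acts directly after serine palmitoyltransferase and is itself on the pathway list. It was at 56.4, 55.7 and 53.5 CPM in Mock, 41.8, 41.2 and 39.3 in upCIN85, 84.5, 75.3 and 52.3 in siNeg, and 122, 83.0 and 72.6 in siCIN85. All upCIN85 libraries of *KDSR* lay below Mock, whereas siNeg and siCIN85 overlapped, and the log2 fold changes were -0.44 (SE 0.18, edgeR adjusted p = 0.263) and 0.39 (SE 0.18, edgeR adjusted p = 0.302). With the replicate block in the knockdown the edgeR adjusted p-values became 0.0337 and 0.072, and with both experiments blocked 0.0147 and 0.0341. Blocking also raised the calls among all genes tested, which were 154 and 131 without a block. They were 545 and 429 with the knockdown blocked, and 1035 and 968 with both blocked. *KDSR* was picked for its likeness to *PLPP2*, a gene chosen on these comparisons, so its p-values are not a test. After the group means were removed, its r with *PLPP2* was 0.871, and in siNeg and siCIN85 both genes were highest in replicate 1 and lowest in replicate 3, whereas in Mock and upCIN85 their highest libraries differed.

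For *UGT8* the most similar genes were *GSDMD* (r = 0.965), *CELF2* (r = 0.946) and *NCAPH* (r = 0.937). After the group means were removed, r with *UGT8* was 0.905 for *GSDMD*, 0.465 for *CELF2* and 0.803 for *NCAPH*. *CELF2*, an RNA-binding protein gene, was at a mean of 70.5 CPM in Mock and 16.9 in upCIN85, and 81.4 in siNeg and 70.8 in siCIN85. For *SPTLC3* they were *DSC3* (r = 0.943), *MAP3K14* (r = 0.933) and *UBL3* (r = 0.932). *DSC3*, a desmosomal cadherin, was at 2.35 CPM in Mock and 20.5 in upCIN85, and 1.97 in siNeg and 1.36 in siCIN85. Among the 10 enzymes themselves, *SPTLC3* and *UGT8* had r = -0.923 and *PLPP2* and *SPTLC3* had r = -0.796 over the 12 libraries, and -0.698 and -0.828 after the group means were removed. *SPTLC3* had at most 5 counts in any library outside upCIN85, so its log2 values there depend on counting noise and the added count of 2. These pairs were picked from all pairs of the 10 genes, and *PLPP2* and *SGPL1* had the highest r after that removal, 0.865.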

How the data were processed

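RNA was sequenced from 12 libraries of HOS cells, made with a QuantSeq 3′ FWD kit with unique molecular identifiers. The deposited values are raw read counts per gene, produced by the authors with featureCounts. The submitters' processing notes name GRCh38, cutadapt 4.3, STAR 2.7.3a, Picard 2.25.6 and Subread 2.0. The annotation, the strand setting and whether identifiers were collapsed are not given in the sources used here, so counts may include PCR copies. Symbols and positions came from GENCODE 29, in which 95 of 25141 identifiers had no match.

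Groups follow the labels. The counts were filtered with filterByExpr (minimum count 10, minimum total 15), normalized by TMM and fitted with edgeR 4.0.16 in R 4.3.3 (quasi-likelihood, all 12 libraries, a mean per group, 8 residual degrees of freedom). P-values are two-sided and Benjamini-Hochberg adjusted over 12542 genes, with a threshold of 0.05. Intervals are 95%, and correlations and ratios used log2 CPM with a prior count of 2. The script was tested on simulated data. Total counts limit precision most for *SPTLC3* and *PLPP3*. Replicates of a group were compared in pairs, and all differed beyond sampling noise.

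Alternatives were DESeq2 1.42.0, RLE normalization, no filter, at least 10 counts in every library, only the 6 libraries of a comparison, a replicate block, each library left out, and a prior count of 0.5. Deviations from the group means correlated between siNeg and siCIN85 libraries of the same number (r = 0.353, 0.269 and 0.446 across genes). The labels do not say that libraries of the same number were paired, so the blocked fits rest on a pairing inferred from these data.

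The 10 genes, the pathway list and the markers were chosen with earlier results of these data known. Named besides the 10 genes were *SH3KBP1*, pathway genes past the threshold, the most abundant tested gene of each role, and the 3 genes most correlated with *PLPP2*, *UGT8* and *SPTLC3*. The result of 1 gene of the pathway list that passed the threshold is not reported here, and it was left out of the plot of pathway changes.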

Additional observations from a re-analysis of the deposited data

How the results depend on the processing

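Of 586 values of single genes and ratios recomputed under an alternative, 576 were labelled as the same, 10 as moved, and none of those called reversed. Values labelled as the same include shifts larger than the SE. For example, *PLPP1* in upCIN85 minus Mock went from 0.10 (SE 0.19) to -0.16 without upCIN85 replicate 3. The count of all genes called was sensitive. In upCIN85 minus Mock it was 154, and 281 with the 6 libraries of the comparison, 311 with DESeq2, 429 with DESeq2 and the replicate block, 637 without the filter, 1035 when both experiments had a replicate block and 545 when only the knockdown had it. In siCIN85 minus siNeg it was 131, and 50, 298, 437, 617, 968 and 429 under the same settings. In siNeg minus Mock it was 66, and 183 with DESeq2 and 376 without the filter, and no block fit was made. With single libraries left out these counts ranged from 25 (without upCIN85 replicate 3) to 260 (without upCIN85 replicate 2), from 9 without siCIN85 replicate 1 up to 362 when siCIN85 replicate 2 was left out, and from 7 to 134. Same-numbered Mock and upCIN85 libraries had r of 0.326, 0.227 and 0.099, and each correlated best with its own number, a hint from the data and not from the design. The cause of these moves was not tested.

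Of the 10 enzymes, the 3 called in upCIN85 minus Mock became 1 to 3 with a library left out. The count was 1 without any single Mock library, or without upCIN85 replicate 1 or 3. *UGT8* was called in all 20 alternatives, but the genes were chosen on these comparisons, so nothing about the gene is read from this. With DESeq2 the count was 2, as *SPTLC3* was given no adjusted p there (log2 fold change 2.84). The 1 called in siCIN85 minus siNeg became 0 with 6 libraries, 2 with DESeq2, 3 with DESeq2 and the replicate block, 3 without the filter, 3 with a replicate block in both comparisons, 2 when only the knockdown was blocked, and 0 to 2 with a library left out, namely 0 without any Mock or siNeg library, siCIN85 replicate 1 or upCIN85 replicate 1. Among these 10 and the 67 pathway genes, blocking the knockdown changed no call in siCIN85 minus siNeg other than those of *SPHK1* and *SGMS2*. Pathway genes called in upCIN85 minus Mock went from 0 to 3 without the filter, 5 and 1 (*KDSR*) with the replicate block in both or in the knockdown only, and 0 to 1 with a library left out. In siCIN85 minus siNeg they went from 2 to 0 with 6 libraries, 6 with both experiments blocked and 0 to 3 with a library left out (3 without siCIN85 replicate 2), and in siNeg minus Mock from 1 to 2 with DESeq2 or without the filter and 0 to 1 with a library left out. Few counts limit *SPTLC3* in the 9 libraries outside upCIN85.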
